A study of Mus musculus with 17 samples.

Results

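Notch receptors, their ligands and the Hes/Hey target genes were read across 6 populations of mouse hematopoietic stem and progenitor cells (HSPCs). The members are 10 genes, 4 receptors (Notch1, Notch2, Notch3, Notch4), 3 ligands (Jag1, Jag2, Dll1) and 3 genes that act downstream of the receptors or are induced by them (Hes1, Hey1, Dtx1), out of 28090 gene names on the array. They were chosen by gene name, and every non-control probe carrying one of those names was kept, which gave 14 probes of 41174. Notch1 and Jag1 had 2 probes each, Notch2 had 3, and each of the other genes had 1. A probe is called detected on an array where the scanner software marked it as well above background. Of the 14 probes, 2 were detected on all 17 arrays, 11 on some arrays and 1, the Jag1 5' probe, on none.

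Notch receptors are single-pass membrane proteins that bind Jagged or Delta-like ligands on a neighbouring cell. Ligand binding exposes the receptor to ADAM proteases and then to gamma-secretase, which frees an intracellular domain that enters the nucleus and joins RBPJ and Mastermind-like proteins at target genes such as those of the Hes and Hey repressor families. In blood formation the pathway is best known for directing progenitors to the T cell fate in the thymus and for its part in the emergence of stem cells in the embryo.

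The arrays were single-colour Agilent whole-genome mRNA arrays of RNA from sorted bone marrow cells of female C57Bl/6 mice aged 6 to 8 weeks, with 10 to 20 mice pooled for each replicate sample. The HSC subsets, all Lineage-, c-Kit+ and Sca-1+, were long-term HSCs (LT-HSC, CD34- FLT3-, 2 arrays), short-term HSCs (ST-HSC, CD34+ FLT3-, 3 arrays) and multipotent progenitors (MPP, CD34+ FLT3+, 3 arrays). The myeloid progenitors, Lineage-, c-Kit+ and Sca-1-, were common myeloid progenitors (CMP, intermediate for CD34 and the Fc gamma receptor), granulocyte-monocyte progenitors (GMP, positive for both) and megakaryocyte-erythroid progenitors (MEP, negative for both), with 3 arrays each. One LT-HSC array held a pool of replicates 2 and 3, and the other, like 1 array of every other population, carries no replicate number and is called unnumbered below.

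Array facts that touch the results were as follows. The arrays were grouped into 3 scanning runs, of which only run 2 held both sides of the hierarchy. It had 2 arrays from HSC subsets and 3 from myeloid populations. The 2 slides of run 2 were scanned on different days, and each held both sides: slide 3 had the MPP, CMP and GMP arrays and slide 4 the ST-HSC and MEP arrays. The 6 arrays of run 1 were all myeloid and the 6 of run 3 all from HSC subsets. Outside run 2, run and side of the comparison cannot be told apart, so the difference within run 2 and the fit with run as a block are given below. The unnumbered LT-HSC array was the dimmest, with a 75th percentile intensity of 53.1 against 243 to 534 on the other 16, and 41.4% of its spots were well above background against 48.2% to 70.1%. That share was 66.2% to 70.1% on the ST-HSC and MPP arrays of run 3 against 48.2% to 59.4% on the myeloid arrays. The run 2 arrays of ST-HSC and MPP stood at 56.7% and 59.0%, and the LT-HSC pool of run 3 at 54.6%. The share thus moved with run, though not with run alone, and counts of arrays that detected a probe cannot be told apart from run. Among the sort markers, Flt3 was highest in MPP (9.93, mean log2 level) and Fcgr3 in GMP (13.61), while several transcripts went against the surface sort: Cd34 was high in LT-HSC (14.96), Flt3 stood at 8.24 in LT-HSC and 9.38 in CMP against 6.86 in ST-HSC, and Ly6a, which encodes Sca-1, stood at 9.71 in GMP, above ST-HSC at 8.88. Of 5 HSC markers, Procr and Hlf were higher in the HSC subsets by 5.19 and 4.65 on the log2 scale, and Slamf1 was not detected in MPP. Because these are bulk samples, fewer cells of a type and less RNA per cell cannot be told apart.

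The probe sequences below identify what was read for the members the results turn on. Positions are in the mm9 build, as the array files give them, and probes of 1 gene are called 5', middle or 3' by their order along the transcript. The first set is the Notch1 pair, shown because their targets adjoin: the last 30 bases of the 5' probe (chr2:26314830-26314889, minus strand) and the first 30 of the 3' probe (chr2:26314772-26314830, minus strand) share only the 1 base in capitals, so the pair reads neighbouring stretches of the same transcript.
Notch1 5' probe: cctttttatttatatgtattgttttctatG
Notch1 3' probe: Ggcactaggggaaaaacatatctgttccaa
The next pair, from Notch2, is shown because these probes moved in opposite directions: the first 30 bases of the middle probe (chr3:97952843-97952902, plus strand) and of the 3' probe (chr3:97953914-97953973, plus strand).
Notch2 middle probe: tctgtggtaatctaggatgatagttttctc
Notch2 3' probe: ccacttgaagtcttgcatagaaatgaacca
The remaining ones are the probes with the largest differences between populations. They are shown as the first 30 bases for Hey1 (chr3:8663432-8663491, minus strand) and Jag2 (chr12:114146887-114146946, minus strand), and as the whole probe for Hes1. The 60-base Hes1 probe spans 296 bases of the genome in all (chr16:30065983-30066278, plus strand), as a probe across a splice junction would.
Hey1: gatttgggctctaaaagtattgttttacag
Jag2: ttgtataaattattcaacggctgtcaggcg
Hes1: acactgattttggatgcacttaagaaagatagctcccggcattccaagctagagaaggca
The longest run of identical bases that any of the 14 probes shared with a probe of another gene, on either strand, was 13 to 16 of 60.

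Most member probes were higher in HSC subsets than in myeloid progenitors. The question was which Notch genes separate the stem cell end of the hierarchy from the committed myeloid end, and it was put as the mean of the LT-HSC, ST-HSC and MPP means minus the mean of the CMP, GMP and MEP means. Of the 14 probes, 10 passed an adjusted p of 0.05 (limma, Benjamini-Hochberg over all 41174 probes), 9 of them higher in HSC subsets and 1 lower. Over the whole array 41.3% of probes were called, 18.2% higher and 23.1% lower in HSC subsets. The median log2 difference was 0.81 over the member probes and -0.02 over all probes. The 8 and 9 arrays of the sides did not overlap for 2 member probes, Hey1 and Hes1, against 8.05% of all probes. In the fit with scanning run as a block 7 member probes were called, all of them higher in HSC subsets, against 14.5% of all probes called and 6.86% higher in the same fit. With scanning day as the block, chosen after seeing the data because run 2 spans 2 days, 7 were called again, all higher, against 13.2% of all probes. Within slides 3 and 4 the differences were 7.02 and 4.51 for Hey1, 3.74 and 4.71 for Jag2, and 3.81 and 3.21 for Hes1. These include values not above background: the GMP array of slide 3 detected none of these probes. The MEP array of slide 4 did not detect Jag2 or Hes1.

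**Figure D1:**
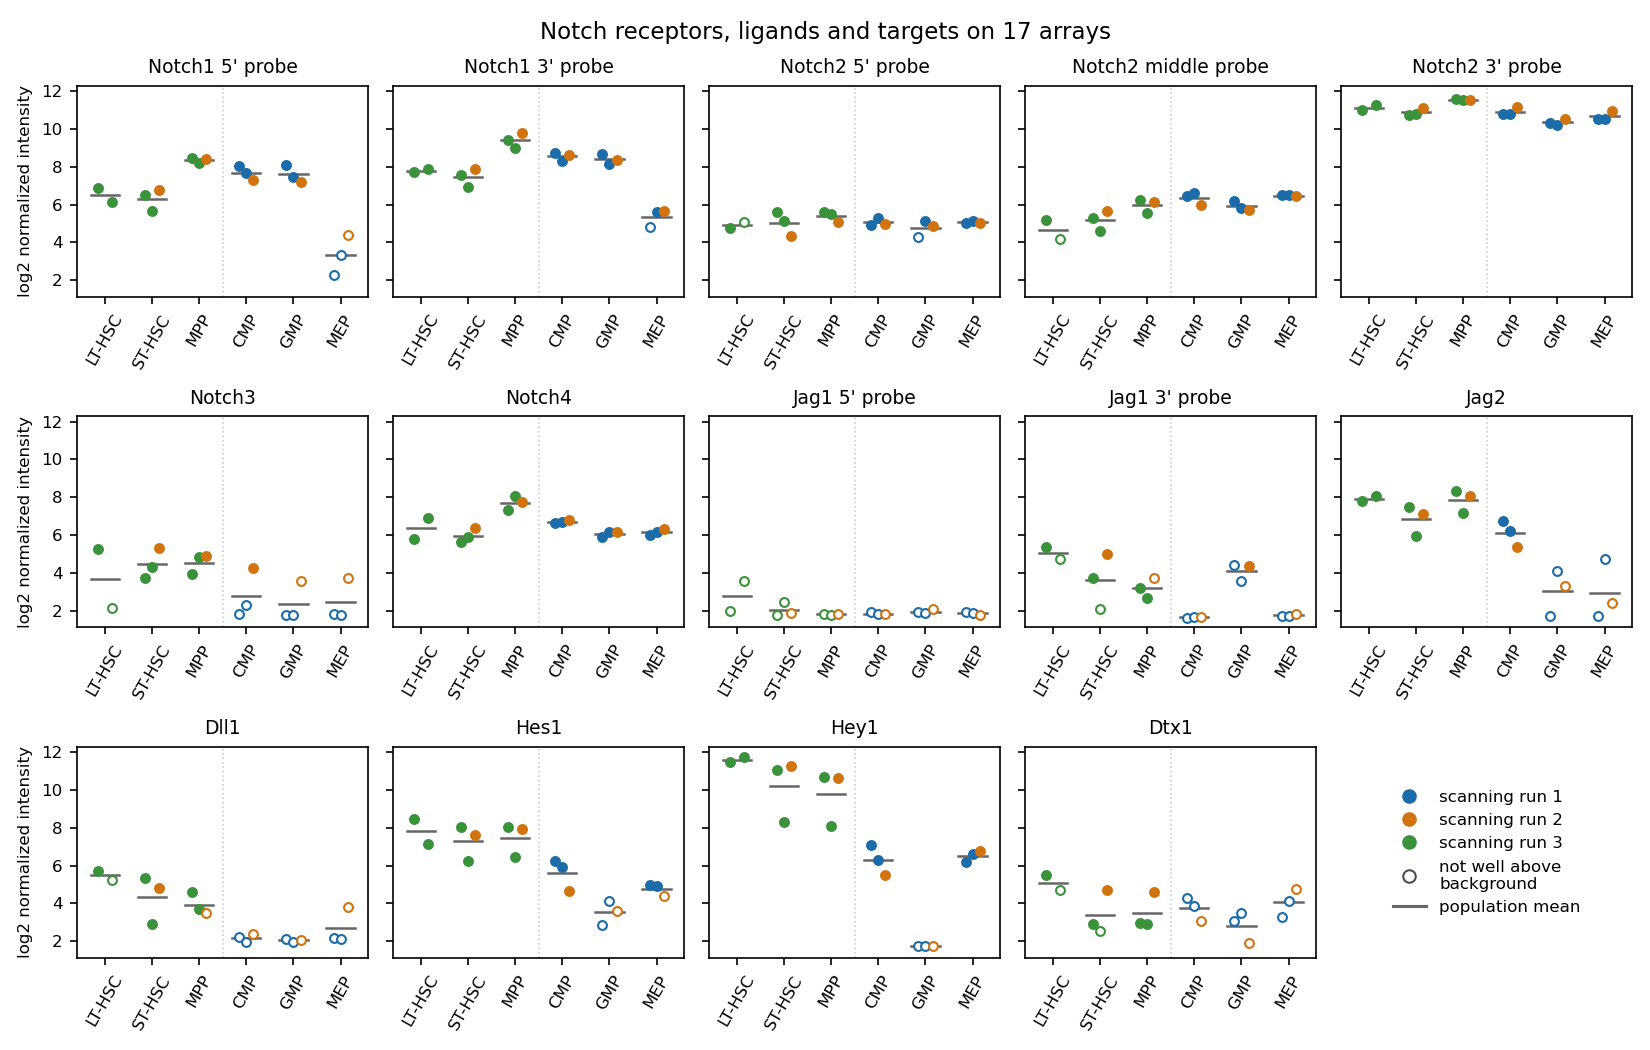
Log2 normalized intensity (vertical axis) of the 14 member probes on the 17 arrays, by population, with colours for the scanning run, open circles for arrays on which the probe was not detected and a bar for each population mean. Hey1 was highest in LT-HSC (mean 11.60) and open on all GMP arrays, Notch1 and Notch4 were highest in MPP, and the Jag1 5' probe was open on all arrays.

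Notch1, the receptor needed for T cell commitment, was highest in MPP and lowest in MEP by both of its probes. On the 3' probe, which has 10 spots per array with a median SD of 0.07 between spots, the log2 level was 7.70 and 7.86 in LT-HSC, 7.57, 6.90 and 7.85 in ST-HSC, and 9.39, 8.97 and 9.80 in MPP. In the myeloid populations it was 8.71, 8.31 and 8.64 in CMP, 8.67, 8.13 and 8.35 in GMP, and 4.79, 5.62 and 5.65 in MEP. All MPP arrays were above all others, all MEP arrays were below all others, and CMP and GMP overlapped with each other and lay above LT-HSC and ST-HSC. Averaged over the sides, HSC subsets were higher by 0.77 (SE 0.18, adjusted p = 0.00364), a 1.71-fold difference in which the low MEP level takes part, since CMP and GMP, at 8.55 and 8.38, exceeded LT-HSC and ST-HSC, at 7.78 and 7.44. The 5' probe gave 0.86 (SE 0.28, adjusted p = 0.0254), and this call was lost with run as a block (1.04, adjusted p = 0.277) and without the LT-HSC pool (0.73, adjusted p = 0.0821).

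Notch2, a receptor with known roles in marginal zone B cells and in regenerating stem cells, gave 3 different readings. The 3' probe was detected on every array, with population means of 10.88 to 11.55 in HSC subsets and 10.35 to 10.91 in myeloid populations, and was higher in HSC subsets by 0.54 (SE 0.10, adjusted p = 0.000766). The middle probe was lower in HSC subsets by 0.97 (adjusted p = 0.00108), with 4.16 to 6.22 against 5.74 to 6.62. The 5' probe differed by 0.15 (adjusted p = 0.543). The middle probe's call was lost with run as a block (-0.38, adjusted p = 0.536), and within run 2 its difference was -0.14, whereas the 3' probe gave 0.45 (adjusted p = 0.0354) with the block and 0.46 within run 2. Which transcript ends or isoforms the probes read was not tested.

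Notch3, a receptor best known from vascular smooth muscle, was near the detection limit. In HSC subsets 7 of 8 arrays detected it, at 3.73 to 5.30, with the unnumbered LT-HSC array at 2.13, and in the myeloid populations 1 of 9 did, CMP unnumbered at 4.25. The difference was 1.70 (SE 0.53, adjusted p = 0.0198). The 6 myeloid arrays of run 1 lay at 1.77 to 2.28 and the 3 of run 2 at 3.57 to 4.25, so the myeloid arrays separated by run. The difference was 1.08 with run as a block (adjusted p = 0.375), without the LT-HSC pool it was 1.18 (adjusted p = 0.0805), and within run 2 it was 1.25.

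Notch4, a receptor best known from endothelium, was detected on all arrays and was highest in MPP. It read 7.32, 8.04 and 7.76 in MPP, against 5.81 and 6.89 in LT-HSC, 5.61, 5.88 and 6.38 in ST-HSC and 5.90 to 6.79 over the 9 myeloid arrays. The MPP arrays lay above all other arrays. The sides as a whole differed by 0.36 (SE 0.16, adjusted p = 0.0959), and the value turned on the LT-HSC arrays: it was 0.18 without the unnumbered one (adjusted p = 0.357), 0.54 without the pool (adjusted p = 0.00931) and 0.52 without both (adjusted p = 0.0102). It was also called with normexp (0.24, adjusted p = 0.0249) and with 75th percentile scaling (0.74, adjusted p = 0.00345).

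Of the ligands, Jag2 had the largest measured difference. Most myeloid arrays did not detect it or the other ligands, so the true sizes are not ranked. Jag2, a Jagged ligand, read 7.78 and 8.05 in LT-HSC, 7.51, 5.93 and 7.13 in ST-HSC, 8.35, 7.18 and 8.08 in MPP and 6.75, 6.21 and 5.39 in CMP, but was detected in neither GMP (1.74, 4.12, 3.30) nor MEP (1.72, 4.73, 2.42). HSC subsets were higher by 3.51 (SE 0.46, adjusted p = 4.71e-05), where 3 of 9 myeloid arrays detected it. The only overlap between the sides was ST-HSC replicate 3, which lay below the CMP replicates 1 and 2. The difference was 4.13 with run as a block (adjusted p = 0.0154) and 3.90 within run 2. It was smaller, and still called, with normexp (1.25), a background correction that raises dim values, and in the authors' table (1.84).

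Dll1, a Delta-like ligand, was detected on 6 of 8 HSC subset arrays and on 0 of 9 myeloid ones. It read 5.71 and 5.24 in LT-HSC, 5.33, 2.92 and 4.81 in ST-HSC, and 4.58, 3.69 and 3.52 in MPP, against 1.94 to 2.40 in CMP and GMP and 2.10 to 3.80 in MEP. The measured means were 4.59 and 2.31, with an adjusted p of 0.000129, and HSC subsets were at least 1.14-fold higher. Such a bound sets the brighter mean against, on each dim array, the higher of the probe's own value and the lowest signal of any detected probe. The call was lost with run as a block (adjusted p = 0.0896). Detection did not follow level alone, since ST-HSC replicate 3 counted as detected at 2.92 and the unnumbered MEP array, at 3.80, did not. Its 10 spots per array had a median SD of 0.38, above that of the Notch1 3' probe.

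Jag1, the other Jagged ligand, was not measured by its 5' probe and was dim on its 3' probe. The 3' probe was detected on 5 of 8 HSC subset arrays and on 1 of 9 myeloid ones, in GMP. It read 5.35 and 4.74 in LT-HSC, 3.71, 2.08 and 5.01 in ST-HSC, 3.18, 2.66 and 3.71 in MPP, 4.42, 3.56 and 4.34 in GMP, and 1.63 to 1.83 over the 6 CMP and MEP arrays. Since most of these values are not above background, no order of the populations is read from them, and CMP and MEP arrays detected it nowhere. The sides differed in the fit (adjusted p = 0.00308), a call that was lost when both LT-HSC arrays were left out (adjusted p = 0.0665).

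Hey1, a transcriptional repressor that is induced by Notch, was highest in LT-HSC, with a mean of 11.60, and not detected in GMP. Its means in CMP and MEP were 6.28 and 6.52, with overlapping arrays. It read 11.45 and 11.76 in LT-HSC, 11.04, 8.29 and 11.28 in ST-HSC, and 10.67, 8.10 and 10.65 in MPP. In the myeloid populations it read 7.07, 6.27 and 5.51 in CMP, 6.16, 6.63 and 6.77 in MEP, and 1.72, 1.73 and 1.76 in GMP, where no array detected it. Every array of HSC subsets was above every myeloid array, and the LT-HSC arrays were above all ST-HSC and MPP arrays. The difference between the sides was 5.69 (SE 0.46, adjusted p = 1.29e-06), 6.98 with run as a block (adjusted p = 0.000593) and 6.29 within run 2. It was 3.40 with normexp and 4.13 in the authors' table, and it was called under each.

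Hes1, the basic helix-loop-helix repressor most often taken as a Notch readout, also had its highest mean in LT-HSC and its lowest in GMP. Unlike those of Hey1, its LT-HSC values overlapped those of ST-HSC and MPP. It read 8.47 and 7.14 in LT-HSC, 8.05, 6.24 and 7.60 in ST-HSC, 8.05, 6.44 and 7.93 in MPP, 6.23, 5.90 and 4.64 in CMP, 2.85, 4.14 and 3.58 in GMP, and 4.99, 4.94 and 4.39 in MEP. The sides did not overlap, although ST-HSC replicate 3, at 6.24, stood next to CMP replicate 1, at 6.23, and no GMP array detected it. The difference was 2.89 (SE 0.36, adjusted p = 3.21e-05), against a myeloid mean that includes 4 arrays that did not detect it, and it was 3.76 with run as a block (adjusted p = 0.00537) and 3.56 within run 2. It was 1.15 with normexp and 1.76 in the authors' table, and was called in both.

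ST-HSC replicate 3 and MPP replicate 3 were both the lowest arrays of their populations for 8 of the 14 probes. These were Hey1, Hes1, Jag2, the Jag1 3' probe, both Notch1 probes, the Notch2 middle probe and Dtx1. The replicate 3 arrays share a slide and a replicate number. Replicate 2 of both populations was on the same slide, with Hey1 at 11.04 and 10.67 against 8.29 and 8.10 for replicate 3. What sets the replicate 3 arrays apart was not tested. Without both replicate 3 arrays 9 of the 14 probes were called between the sides, and the share of all probes in that fit was not taken. The Hey1, Hes1 and Jag2 differences were then 6.29, 3.24 and 3.78. Both arrays were chosen for this after their values were seen.

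Dtx1, a ubiquitin ligase that binds the Notch intracellular domain and is itself a Notch target in lymphocytes, was detected on 6 of 8 HSC subset arrays and on 0 of 9 myeloid ones, yet the measured levels overlapped, and MPP replicate 3, at 2.88, counted as detected while the unnumbered MEP array, at 4.77, did not. They ran from 2.55 to 5.49 in HSC subsets and from 1.92 to 4.77 in myeloid populations, with means of 3.98 and 3.54 (adjusted p = 0.392). The call appeared with run as a block (adjusted p = 0.0218). No fold is given, since the bound was under 1.

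**Figure D2:**
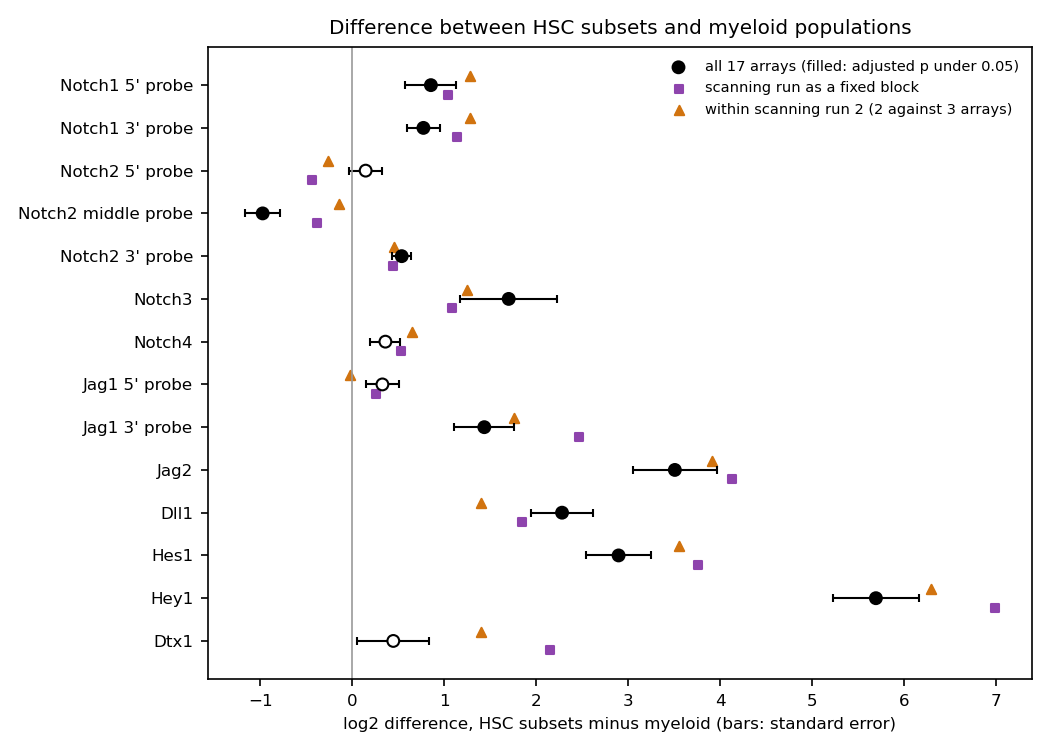
Log2 difference between HSC subsets and myeloid populations (horizontal axis) for the 14 member probes, with circles for the fit over all 17 arrays (filled where the adjusted p was under 0.05, bars for the standard error), squares for the fit with scanning run as a block and triangles for the arrays of run 2 alone. Hey1, Jag2 and Hes1 lay farthest to the right in all 3 readings, and the Notch2 middle probe lay at -0.97, -0.38 and -0.14.

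The F-test, which asks whether any of the 6 populations differ, called 10 of the 14 probes, against 40.6% of all probes. The exceptions were the Notch2 5' probe, Notch3, the Jag1 5' probe and Dtx1. Notch4, not called between the sides, was among those called (adjusted p = 0.0013), and Notch3, called between the sides, was not (adjusted p = 0.152). By mean, LT-HSC was the highest population for 7 probes, those of the ligands and targets, and MPP for 6, all of receptors. The 7 include the undetected Jag1 5' probe and the dim Jag1 3' probe, for which no order is read. The Jag1 3' probe, Dll1 and Dtx1 were each detected on 1 of 2 LT-HSC arrays. Jag2 was nearly level in LT-HSC (7.91) and MPP (7.87).

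The order of the population means showed where the steps lay. For the Notch1 3' probe the order was MPP, CMP, GMP, LT-HSC, ST-HSC, MEP, and arrays of neighbours did not overlap between MPP and CMP, between GMP and LT-HSC, and between ST-HSC and MEP. For Hey1 the order was LT-HSC, ST-HSC, MPP, MEP, CMP, GMP. The means differed by 1.40 between LT-HSC and ST-HSC (not called in limma, adjusted p = 0.458) and by 3.28 between MPP and MEP. Arrays of these neighbours did not overlap, but the nearest LT-HSC and ST-HSC arrays stood at 11.45 and 11.28, with ST-HSC replicate 3 at 8.29. CMP lay above GMP, where Hey1 was not detected. For Hes1 the neighbours apart were ST-HSC and CMP, and MEP and GMP. For Jag2 only CMP and GMP were apart, and for Notch4 only MPP and CMP. No neighbours were apart for Dll1, Notch3, Dtx1, the Notch2 5' probe or the Jag1 5' probe.

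Along the hierarchy the member probes gave 16 calls over 6 steps. The first step, LT-HSC to ST-HSC, gave 0 of 14 in limma, against 3.34% of all probes, with 2 arrays against 3. At an unadjusted p under 0.05, 3 probes passed, both of Jag1 and Dtx1. Blocked fits changed this count, and that over all probes, to 8.81% with run as a block and 17% with the replicate block. With run as a block the Jag1 3' probe (1.93, adjusted p = 0.0336) and Dtx1 (2.30, adjusted p = 0.0233) were called. The replicate block, in which the LT-HSC pool has a label of its own, and leaving out the pool both leave LT-HSC as 1 array, the dim one, with its spread assumed to be that of the other groups: the block called 3 probes and the omission 1, the Jag1 5' probe detected on no array, and nothing is read from them. Leaving out the unnumbered ST-HSC array called the Jag1 3' probe (adjusted p = 0.0288).

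From ST-HSC to MPP, 3 of 14 probes were called, against 2.02% of all probes, and all 3 belong to receptors and were higher in MPP. The Notch1 3' probe was lower in ST-HSC by 1.94 (SE 0.30, adjusted p = 0.00325), a 3.84-fold difference, Notch4 by 1.75 (SE 0.27, adjusted p = 0.00346) and the Notch1 5' probe by 2.03 (adjusted p = 0.0395). Both populations were on the same slide in run 3, where the differences were -1.94, -1.93 and -2.24, and in run 2, where the 2 arrays were scanned on different days, they were -1.95, -1.38 and -1.62. With normexp they were -1.40, -0.88 and -1.16, and still called. No ligand or target was called in this step. The Notch1 5' probe lost its call when any 1 of 11 arrays was left out, of the 17 left out in turn, with adjusted p up to 0.193 without ST-HSC replicate 3, and with the replicate block (adjusted p = 0.0759), and without ST-HSC replicate 3 and MPP replicate 3 together Notch4 did too (-1.54, adjusted p = 0.081). Of the 5 T cell markers measured, Lck (8.81 in ST-HSC, 10.78 in MPP) and Cd8a (3.13 and 7.75) were higher in MPP, Cd3e (6.54 and 6.53) and Cd4 (5.24 and 5.28) were level, and Cd3g was lower (4.29 and 3.01). The mean of that list per array was 6.35 to 6.97 in MPP and 5.25 to 5.86 in ST-HSC. Other marker lists moved the other way, megakaryocyte from 11.15 to 11.29 in ST-HSC to 6.60 to 7.64 in MPP, GMP from 14.17 to 15.17 to 11.54 to 13.17, MEP from 8.57 to 9.03 to 6.22 to 7.37, and macrophage from 8.53 to 9.66 to 7.58 to 8.04. Their part in the result was not tested.

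From MPP to CMP, 3 of 14 were called, all lower in CMP, against 12.1% of all probes. Hey1 fell by 3.52 (SE 0.77, adjusted p = 0.0118), Notch4 went from 7.70 to 6.70 (adjusted p = 0.0315) and the Notch2 3' probe from 11.55 to 10.91 (adjusted p = 0.0273). Within run 2 the MPP array exceeded the CMP array by 5.15, 0.97 and 0.40. Hey1 with run as a block kept its call (4.65, adjusted p = 0.0273), while Notch4 (1.13, adjusted p = 0.125) and the Notch2 3' probe (0.52, adjusted p = 0.0766) did not. Hey1 lost its call without MPP replicate 2 (3.09, adjusted p = 0.0659). Notch4 lost its call without MPP replicate 3 or unnumbered or CMP replicate 1 or 2 (adjusted p = 0.0513 to 0.129), and the Notch2 3' probe without MPP replicate 2 or 3 or CMP replicate 1 or 2 (adjusted p = 0.076 to 0.118).

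In the main fit the steps out of CMP called different members, with Hey1 on the granulocyte-monocyte side, Notch1 on the megakaryocyte-erythroid side and Jag2 on both. The calls of Hey1 and Jag2 from CMP to GMP were lost with normexp and in the authors' table, as given below. From CMP to GMP, 3 of 14 probes were called, against 4.77% of all probes: Hey1 (adjusted p = 0.00359) and Jag2 (adjusted p = 0.0344) were at least 4.11-fold and at least 3.66-fold lower in GMP, where neither was detected, and the Jag1 3' probe passed the test (adjusted p = 0.0182) with 0 of 3 CMP and 1 of 3 GMP arrays detecting it, so that neither a direction nor a bound is read from it, and a filter on dim probes left it out. From CMP to MEP, 3 of 14 were called, against 16.7%: Notch1 was lower in MEP on its 3' probe by 3.20 (SE 0.30, adjusted p = 6.19e-06) and at least 7.72-fold lower on its 5' probe (adjusted p = 1.98e-05), and Jag2 was at least 2.59-fold lower (adjusted p = 0.0103). From CMP to GMP, Jag2 lost its call without GMP replicate 1 or unnumbered or CMP replicate 1 or 2 (adjusted p = 0.082 to 0.159), and the Jag1 3' probe without any of those or the unnumbered CMP array (adjusted p = 0.0526 to 0.0775). From CMP to MEP, Jag2 lost its call without MEP replicate 1 (2.54, adjusted p = 0.053). Hey1 differed from CMP to MEP by -0.24 (SE 0.77, adjusted p = 0.92).

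Set against each other, GMP and MEP differed for 4 of 14 probes, against 17.4% of all probes. Notch1 was higher in GMP, by 3.03 on the 3' probe (SE 0.30, adjusted p = 7.33e-06) and at least 7.33-fold on the 5' probe (adjusted p = 1.73e-05). Hey1 was at least 4.85-fold higher in MEP (adjusted p = 0.000509). The Jag1 3' probe read 4.10 in GMP, where 1 of 3 arrays detected it, and 1.76 in MEP, where none did (adjusted p = 0.00736), and the bound on its fold was under 1. Receptor and target stood in opposite order in these populations, Notch1 high and Hey1 below detection in GMP, Notch1 low and Hey1 measured in MEP. These directions held within run 1 and within run 2, where GMP and MEP were scanned on different days. The bounds for the steps out of CMP and between GMP and MEP are on the scale of the processed signal, and normexp and the authors' table gave log2 differences below them. The Notch1 differences from MEP were smaller, and still called, with normexp (3' probe 1.69 for CMP and 1.56 for GMP, 5' probe 1.40 and 1.32) and in the authors' table (3' probe 2.36 and 2.20, 5' probe 2.22 and 2.14). Jag2 between CMP and MEP was 0.71 with normexp and 1.15 in the authors' table, called in both. For Hey1 both calls against GMP were lost: GMP minus MEP was -0.97 with normexp (adjusted p = 0.38) and -1.70 in the authors' table (adjusted p = 0.0866), which follows the intensity before background subtraction, and CMP minus GMP was 0.90 (adjusted p = 0.732) and 1.54 (adjusted p = 0.287). For Jag2 between CMP and GMP the call was lost too, at 0.68 (adjusted p = 0.12) and 1.10 (adjusted p = 0.0744), and with scanning day as a block (adjusted p = 0.0559).

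**Figure D3:**
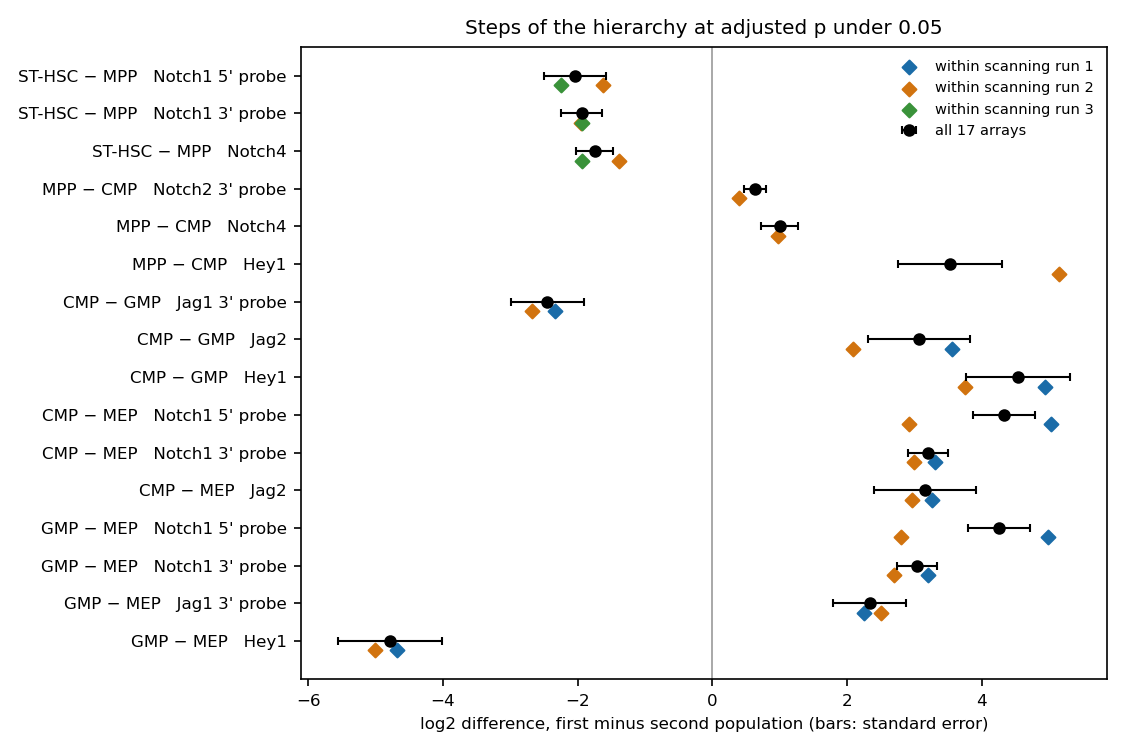
Log2 difference (horizontal axis) of the 16 called steps of the hierarchy, first population minus second, with circles and standard error bars for the fit over all 17 arrays and diamonds for the difference within each scanning run that holds both populations. Every diamond lies on the same side of 0 as its circle.

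The other genes of the pathway were taken from a list of 60, of which 59 had a probe, each read by its brightest probe. Of these, 21 were higher in HSC subsets, 12 lower and 26 not called, against 21.7% higher and 19% lower over the brightest probes of all 28090 gene names. Under the run block 13 were higher and 1 was lower, against 8.16% higher and 7.26% lower over all gene names in that fit, and with 75th percentile scaling, which moved the median difference of all probes to 0.31, 26 were higher and 9 lower. Within run 2, 19 of the 21 higher genes and 9 of the 12 lower genes kept their sign.

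Genes that glycosylate, cleave or trim the receptors were mostly lower in HSC subsets. Of 14, 8 were lower and 3 higher, with a median of -0.77. Over all gene names 19% were lower and 21.7% higher, with a median of 0.04. Aph1a, a gamma-secretase subunit, was lower by 2.89 (SE 0.40, adjusted p = 7.82e-05), with means of 4.29 and 7.18, and neither LT-HSC array detected it. Pofut1 and Poglut1 (named Ktelc1 on the array), the enzymes that add O-fucose and O-glucose to the receptor's EGF repeats, were lower by 1.25 and 1.18, and Rfng, a Fringe glycosyltransferase, by 1.21. Under the run block 1 of the 14 was lower and 3 higher: Poglut1 kept its call (-0.68, adjusted p = 0.0184), and Aph1a (-1.05, adjusted p = 0.11), Pofut1 (-0.34, adjusted p = 0.188) and Rfng (-0.32, adjusted p = 0.503) lost theirs. Lfng, the Fringe enzyme that favours Delta-like ligands, differed by 0.42 (adjusted p = 0.217), and its other probe was called the opposite way.

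Of the 14 other target genes 7 were higher in HSC subsets, 2 lower and 5 not called, with a median of 1.01. Over all gene names 21.7% were higher and 19% lower. Under the run block 5 of the 14 were higher and 0 lower, with a median of 0.58, against 8.16% and 7.26% over all gene names. Gata3, a zinc finger factor of T cells and stem cells, was higher by 3.40 (SE 0.22, adjusted p = 1.78e-07). It read 9.96 ± 0.39 (SD, n = 2) in LT-HSC, 8.97 ± 0.19 (n = 3) in ST-HSC, 8.44 ± 0.47 (n = 3) in MPP, 6.81 ± 0.24 in CMP and 7.12 ± 0.60 in MEP, and was not detected in GMP. Nrarp, a feedback inhibitor of the Notch complex, was higher by 3.05 (SE 0.40, adjusted p = 5.16e-05), and was detected on 8 of 8 HSC subset arrays and 7 of 9 myeloid ones, with 1 of 3 in GMP. Against the same shares, in the nuclear complex list 7 of 16 were higher and 1 lower, and under the run block 3 were higher and 0 lower. Tle2, a Groucho corepressor, was higher by 2.57 (SE 0.12, adjusted p = 1.5e-08), while Rbpj, the DNA-binding partner of all 4 receptors, differed by 0.22 (adjusted p = 0.25) and by -0.33 with run as a block (adjusted p = 0.178). Among the 4 other ligands only Dlk1, a non-canonical one, was called, higher by 2.64 (adjusted p = 2.41e-06). It was detected on 8 of 8 HSC subset arrays and on 2 of 9 myeloid ones. Of 11 endocytosis and turnover genes 3 were higher and 1 lower, a share near that over all gene names, and 1 was higher under the run block. Gata3, Nrarp, Dlk1 and Tle2 kept their calls with run as a block, at 2.75, 2.60, 2.94 and 2.56, and with normexp, where the differences were 1.76, 1.40, 0.61 and 1.88.

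**Figure D4:**
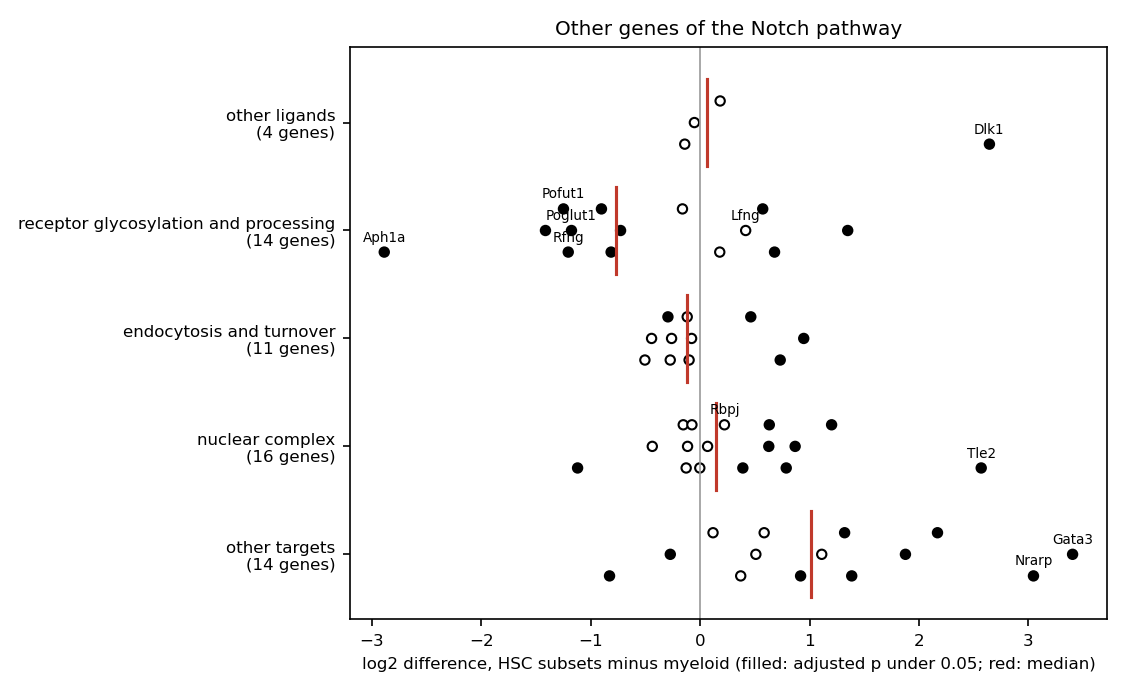
Log2 difference between HSC subsets and myeloid populations (horizontal axis) for 59 other genes of the Notch pathway in 5 lists, with filled circles where the adjusted p was under 0.05, red bars for the list medians and the genes described in the text named. The medians were -0.77 for glycosylation and processing and 1.01 for the other targets.

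The genes most like the members in pattern were found by the root mean square difference of the 6 centred population means, among 24658 probes detected on every array of at least 1 population. Nearest to Hey1 were 9030611O19Rik (1.07), Socs2 (1.14) and Gata3 (1.19), each highest in LT-HSC and lowest in GMP. Nearest to the Notch1 3' probe were Evl (0.12), Tcstv3 (0.16) and Abhd6 (0.24), each highest in MPP and lowest in MEP. Nearest to Hes1 were Bhlhb2 (0.22), Ppp1r9a (0.24) and Rasl12 (0.24), and nearest to Jag2 were C230098O21Rik (0.24), Cd200 (0.29) and 2310026E23Rik (0.30). All of these distances rest on 6 means from the same 17 arrays.

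Marker genes of other cells were read beside the comparison of HSC subsets with myeloid populations. Notch4, Hey1 and the Jagged ligands are also expressed by endothelium. Of 5 endothelial markers 4 were called higher in HSC subsets, Emcn by 4.44, Tie1 (6.90 against 5.60), Kdr by 0.90 and Cdh5 by 0.45, whose other probe was called the opposite way, and Pecam1 was lower by 0.40. Emcn and Tie1 were detected on 8 of 8 HSC subset arrays and Cdh5, the most restricted of the list, on 1. The mean of the list per array was 5.92 to 6.65 in HSC subsets, 5.22 to 6.32 in CMP and GMP and 3.02 to 3.59 in MEP. All 5 T cell markers measured were called higher in HSC subsets, and the mean of the list did not overlap between the sides, at 5.25 to 6.97 against 4.01 to 5.15. The B cell list, of 4 genes, stood at 6.36 to 6.52 in LT-HSC, 3.95 to 4.98 in ST-HSC and MPP and 2.86 to 3.97 in the myeloid populations, with Ms4a1 at 9.49 in LT-HSC. The mature neutrophil list, of 4 genes, read 10.92 to 14.56 in HSC subsets and 9.98 to 12.96 in the myeloid populations, and the mature erythroid list 8.53 to 10.75 in HSC subsets, 5.94 to 8.65 in CMP and GMP and 10.77 to 12.34 in MEP. Their part in the members' differences was not tested.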

How the data were processed

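Sorted HSPC populations were measured on 17 single-colour Agilent arrays. The authors deposited scanner intensities, in which the processed signal is background-subtracted by the scanner software, and a table of log2 values that ranked spots exactly as the raw median intensity on every array and had near-equal column medians; the authors' methods name quantile normalization and limma. The members and gene lists were chosen with earlier results of these data known.

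Log2 processed intensities of 45018 spots were quantile-normalized, 1639 control spots and outlier-marked spots were left out, and spots of 1 probe were averaged. Population means were fitted with limma 3.58.1 in R 4.3.3 (lmFit, eBayes) over all 17 arrays, with p-values adjusted by Benjamini-Hochberg over 41174 probes and called at 0.05. The fit was tested on simulated data. P-values measure the spread between pooled samples. The fold of a called probe that was dim on all arrays of 1 side was given as a bound, and left out where the bound was under 1 or most arrays of the brighter side were dim too. Named genes were all members by every probe, the 4 pathway genes with the largest called difference each way that were well above background on every array of the higher side, Rbpj and Lfng, and 3 genes of like pattern for each of 4 members. Pathway genes stood for their brightest probe. Alternatives were other scaling, background correction, values, filters and blocks, and each array left out. The number of arrays limits the precision.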

Additional observations from a re-analysis of the deposited data

How the results depend on the processing

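The count of 10 member probes called between HSC subsets and myeloid populations stayed at 10 with each of the 17 arrays left out in turn, and ran from 7 to 12 over the other settings. The count hides a change of members: without the LT-HSC pool the Notch1 5' probe (adjusted p = 0.0821) and Notch3 (adjusted p = 0.0805) lost their calls, and Notch4 (0.54, adjusted p = 0.00931) and the undetected Jag1 5' probe (0.60, adjusted p = 0.000839) gained them, with LT-HSC then resting on 1 array whose spread is assumed to be that of the other groups. The F-test count of 10 ran from 10 to 11 with arrays left out, the 16 calls over the steps from 11 (without CMP replicate 1) to 19 (without the unnumbered ST-HSC array), and the 33 called pathway genes from 25 to 33. With scanning run as a fixed block 14 pathway genes were called, and 2 differences turned direction, the Notch2 5' probe (-0.44) and Rbpj (-0.33). With scanning day as a fixed block, chosen after seeing the data, 12 pathway genes were called, and the same 2 stood at -0.39 and -0.36. With slide as a random block the Notch2 5' probe stood at -0.0016. Within slide 3 the Notch2 middle probe stood at 0.30. The Jag1 5' probe, detected on no array, turned to -0.046 with normexp and to -0.070 in the authors' table, and Dtx1 turned to -0.10 without both LT-HSC arrays. The cause was not tested for any of these. With 75th percentile scaling the Notch2 middle probe was at -0.36 (adjusted p = 0.0929) and 12 member probes were called, all higher. That scaling moved the median difference of all probes to 0.31, toward HSC subsets. The share of all probes called was not taken for it or, apart from the first step, for the replicate block below. Whether replicate numbers pair the samples was not settled. Deviations of same-numbered arrays correlated at 0.13 to 0.52 on a shared slide and at -0.06 to 0.01 on different slides. The pairs on different slides all set an HSC subset array against a myeloid array, from separate sorts and scanning runs. Same-numbered arrays of the same side always shared a slide, so these correlations cannot separate number from slide. With the replicate block 10 member probes were called between the sides, 12 by the F-test, 26 over the steps and 31 pathway genes. The leave-out of ST-HSC replicate 3 and MPP replicate 3 was chosen after seeing the data. Each population had 2 or 3 arrays, and probes near background carry the widest spread.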
